A study of Mus musculus with 12 samples.

Results

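Motile cilia are beating hair-like organelles, and a cell that grows many of them, as in the airway, oviduct and brain ventricles, runs a dedicated gene program for it. In that program the geminin-family factor multicilin (Mcidas) and cyclin O (Ccno) drive the amplification of centrioles, the transcription factor Foxj1 switches on the genes of the beating axoneme, and dynein arms, radial spokes and tektins build it. In the thymus, medullary epithelial cells express genes of many peripheral tissues, and some of them, called mimetic cells, take on whole programs of such tissues, ciliated cells included. The genes described here are 10 members of the motile cilium program, namely Mcidas, Ccno, Foxj1, Dnah5, Dnah9, Dynlrb2, Rsph1, Rsph4a, Tekt1 and Ccdc153. They were picked by symbol as known genes of that program, with earlier results of these data known but with no threshold on measured values, and all 10 were found among 27179 counted genes.

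Their RNA was counted in 12 sequencing libraries of sorted thymic epithelial cells (TECs) of C57BL/6 mice, 3 libraries in each of 4 groups. HOIL-deficient medullary cells with high MHC class II (mTEChi) and HOIL-deficient cortical cells (cTECs) came from mice of genotype Foxn1creT/+ HOILlox/lox, in which Cre under Foxn1 control deletes Hoil (Rbck1) in TECs. Control mTEChi and control cTECs came from Foxn1cre+/+ Hoillox/lox mice, so both genotypes carry the floxed gene and the controls lack the Cre allele. HOIL-1, the product of Rbck1, belongs to the LUBAC ubiquitin ligase, which attaches linear ubiquitin in signalling from TNF-type receptors. Replicate 3 of both HOIL-deficient groups is labelled female and every other library male. Ages are not given in the labels, and nothing says that replicates are separate animals, so the spread that p-values measure here may be technical.

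The libraries held 7941217 to 14274333 counts each. Rbck1 stood at 10.9 to 23.3 CPM (read counts scaled by the total of their library) in HOIL-deficient mTEChi and 108 to 128 CPM in control mTEChi, and at 22.0 to 33.0 CPM in HOIL-deficient cTECs and 183 to 236 CPM in control cTECs. Marker genes went with the sort labels, since all 9 mTEChi marker genes tested were higher, and all 7 cTEC marker genes lower, in control mTEChi than in control cTECs. Aire, the regulator of peripheral gene expression in mTEChi, averaged 928 ± 127 CPM in HOIL-deficient mTEChi and 770 ± 196 CPM in control mTEChi (SD, n = 3 each). Mitochondrial transcripts took 1.71 to 1.91% of counts in HOIL-deficient mTEChi, against 8.93, 3.19 and 4.35% in control mTEChi, and the nuclear RNA Malat1 took 0.713 to 0.983% in HOIL-deficient mTEChi and 3.29 to 5.13% in control mTEChi. Their part in the results below was not tested beyond leaving these transcripts out of the library sizes, which changed no call of the 10 genes between the mTEChi groups.

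The promoters of the genes are shown because regulatory factor X (RFX) proteins and Foxj1 are known to act together on motile cilium genes. RefSeq promoter windows on GRCm38.p6, from 250 bases before to 50 bases after a start site, were held for 7 of the 10 genes in 8 windows, with 2 for Tekt1. The core letters of the RFX motif, GTTGCC or GTTACC on either strand, occurred in 5 of the 8 windows (62.5%), against 18.6% of all 32851 promoter windows. They occurred in 58.2% of 98 windows of other motile cilium genes and in 63.6% of 33 windows of genes shared with non-motile primary cilia, close to the share among the 10 genes. GTTGCC alone occurred in 62.5% of the 8 windows and 12.5% of all windows. The forkhead letters TGTTTAC occurred in 0 of the 8 windows and in 3.65% of all windows. The 5 windows with a match follow, 5′ to 3′ on the strand of the gene, with the matches in capitals. They are chr13:112993618-112993917 (plus strand) for Mcidas, chr13:112987552-112987851 (plus strand) for Ccno, chr8:116504765-116505064 (plus strand) for Dynlrb2, chr11:72361833-72362132 (minus strand) for Tekt1 and chr9:44240427-44240726 (plus strand) for Ccdc153.
Mcidas: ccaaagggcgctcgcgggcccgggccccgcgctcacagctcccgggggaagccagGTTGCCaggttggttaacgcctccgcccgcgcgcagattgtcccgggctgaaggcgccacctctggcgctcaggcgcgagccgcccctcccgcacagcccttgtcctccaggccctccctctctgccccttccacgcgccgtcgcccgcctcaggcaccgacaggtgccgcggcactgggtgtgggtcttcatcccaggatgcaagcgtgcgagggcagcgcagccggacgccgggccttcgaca
Ccno: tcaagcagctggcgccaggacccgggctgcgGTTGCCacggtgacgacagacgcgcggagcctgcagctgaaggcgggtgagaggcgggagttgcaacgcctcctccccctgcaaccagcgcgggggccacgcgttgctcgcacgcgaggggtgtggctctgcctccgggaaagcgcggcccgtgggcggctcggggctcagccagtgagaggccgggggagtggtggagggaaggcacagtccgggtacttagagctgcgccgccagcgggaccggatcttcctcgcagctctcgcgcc
Dynlrb2: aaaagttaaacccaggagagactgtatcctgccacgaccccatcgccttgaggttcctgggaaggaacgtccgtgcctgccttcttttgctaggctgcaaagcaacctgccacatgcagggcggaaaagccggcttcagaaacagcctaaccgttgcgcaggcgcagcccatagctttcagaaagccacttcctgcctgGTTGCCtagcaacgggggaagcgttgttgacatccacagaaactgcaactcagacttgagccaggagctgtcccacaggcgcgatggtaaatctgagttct
Tekt1: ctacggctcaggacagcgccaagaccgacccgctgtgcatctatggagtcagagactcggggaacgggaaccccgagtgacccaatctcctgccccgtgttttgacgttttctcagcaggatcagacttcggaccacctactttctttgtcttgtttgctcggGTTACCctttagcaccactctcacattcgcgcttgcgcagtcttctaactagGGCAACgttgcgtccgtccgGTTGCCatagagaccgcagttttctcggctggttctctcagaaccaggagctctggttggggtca
Ccdc153: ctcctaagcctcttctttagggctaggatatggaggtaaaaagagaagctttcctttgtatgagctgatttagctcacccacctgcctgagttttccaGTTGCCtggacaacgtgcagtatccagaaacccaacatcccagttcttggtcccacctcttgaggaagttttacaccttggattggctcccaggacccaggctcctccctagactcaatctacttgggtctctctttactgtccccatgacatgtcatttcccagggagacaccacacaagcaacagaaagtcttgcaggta
The match begins 51 bases before the start site in Dynlrb2, 152 in Ccdc153, 195 in Mcidas and 219 in Ccno, and Tekt1 has 3 matches, beginning 87, 35 and 15 bases before it. In Tekt1 the GTTACC match lies farthest out and the middle match is GTTGCC on the opposite strand. The windows of Mcidas, Tekt1 and Dnah5 lie inside the annotated span of the gene. A match is a description of these letters and not a measured binding site.

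The first question was what HOIL deficiency did to the program in mTEChi, where most of these genes were found. Ccdc153, Dynlrb2, Rsph1, Dnah5, Ccno and Dnah9 fell, by 4.05 on the log2 scale for Ccdc153 down to 0.89 for Dnah9, while Mcidas, Foxj1, Tekt1 and Rsph4a did not pass the test. Thus 6 of the 10 genes were lower and 0 higher by the quasi-likelihood F test of edgeR with Benjamini-Hochberg adjustment over 19398 tested genes (adjusted p under 0.05), where 8.59% of all tested genes were lower and 11.3% higher. All 10 log2 fold changes were negative, with a median of -1.49 against -0.03 over all tested genes. For 8 of the 10 genes every HOIL-deficient library lay below every control library, which held for 20.6% of all tested genes. Leaving out single libraries gave 3 lower genes without HOIL-deficient replicate 1, 2 without HOIL-deficient replicate 2, 6 without HOIL-deficient replicate 3 and 3 without each single control library. All 10 genes passed the filter on low counts, several of them through mTEChi libraries alone, so these counts and the median are descriptions. In bulk libraries such as these, fewer cells of a type and less RNA per cell cannot be told apart.

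**Figure D1:**
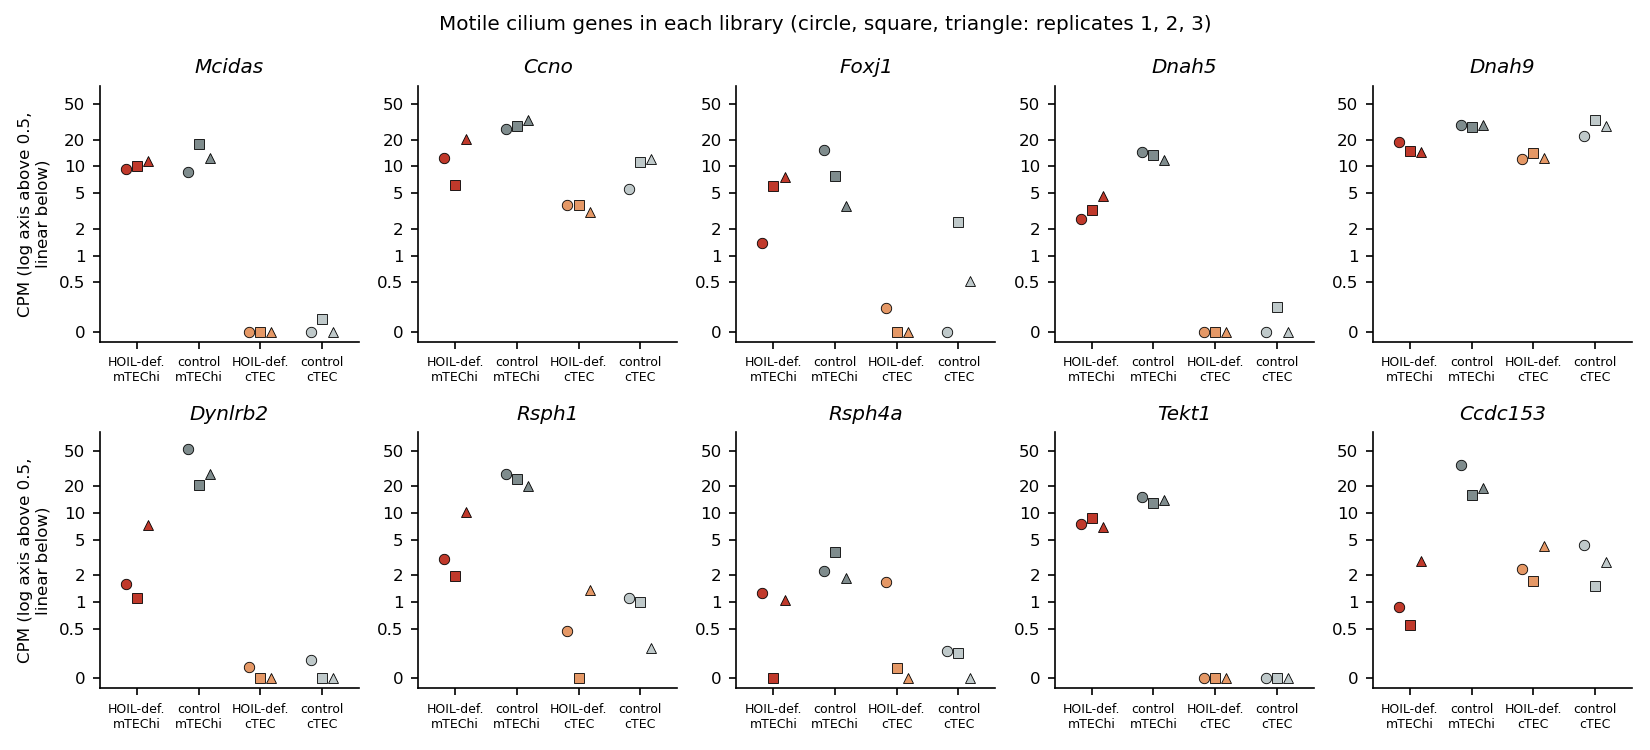
Level of each of the 10 motile cilium genes in each library, in CPM on an axis that is logarithmic above 0.5 and linear below, with symbols for replicates 1, 2 and 3. In mTEChi the HOIL-deficient libraries sit below the control libraries for every gene except Mcidas and Foxj1, and in cTECs Tekt1 is at 0 in all 6 libraries.

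Among the regulators, Mcidas (Entrez 622408, chromosome 13, 112993581 to 113000394) encodes multicilin, a coactivator that works with E2f4 and E2f5 to start centriole amplification; gene positions here are those of RefSeq on GRCm38.p6. It stood at 9.37, 10.2 and 11.5 CPM in HOIL-deficient mTEChi, against 8.60, 18.1 and 12.4 CPM in control mTEChi. The groups overlapped, with the lowest value and the highest value both in controls. The log2 fold change was -0.38 (SE 0.416, adjusted p = 0.57).

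Ccno (Entrez 218630, chromosome 13, 112987802 to 112990778), the neighbour of Mcidas, encodes the cyclin-like protein needed to make the many centrioles. It had 12.5, 6.26 and 20.2 CPM in HOIL-deficient mTEChi and 26.3, 28.4 and 33.1 CPM in control mTEChi. All HOIL-deficient libraries lay below the controls, and replicate 3 came nearest to them. Ccno fell by 1.23 (SE 0.376, adjusted p = 0.035), and the call was lost when any single mTEChi library other than HOIL-deficient replicate 3 was left out (adjusted p 0.062 to 0.11).

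Foxj1 (Entrez 15223, chromosome 11, 116330704 to 116335499) encodes the forkhead factor that turns on axoneme genes. It varied widely within its groups, at 1.38, 6.07 and 7.71 CPM in HOIL-deficient mTEChi and 15.5, 7.86 and 3.59 CPM in control mTEChi. The groups overlapped, since control replicate 3 lay below HOIL-deficient replicates 2 and 3. Its log2 fold change was -0.93, with an SE of 0.899 and adjusted p = 0.51, and the replicates of either group spanned more than the distance between the group means.

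Of the dynein genes, Dnah5 (Entrez 110082, chromosome 15, 28154854 to 28472045) encodes a heavy chain of the outer dynein arm, the motor of the beat. It had 2.56, 3.27 and 4.69 CPM in HOIL-deficient mTEChi and 14.7, 13.3 and 11.9 CPM in control mTEChi. The groups were well apart, with the highest HOIL-deficient library below the lowest control by more than the range of either group. Dnah5 fell by 1.99 (SE 0.531, adjusted p = 0.022), a call lost without any single mTEChi library other than HOIL-deficient replicate 3 (adjusted p 0.060 to 0.094).

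Dnah9 (Entrez 237806, chromosome 11, 65831324 to 66168581), another heavy chain of the outer arm, was at 18.7, 15 and 14.6 CPM in HOIL-deficient mTEChi and 29.1, 27.4 and 29.3 CPM in control mTEChi. Replicates lay close together in both groups and the groups did not overlap. It fell by 0.89 (SE 0.223, adjusted p = 0.014), with adjusted p = 0.064 without the libraries labelled female and 0.051 without HOIL-deficient replicate 2. In the GENCODE M21 annotation of GRCm38, 495 exonic bases of Dnah9 overlap the antisense transcript Gm12296, and no source used here gives the strandedness of the counting, so their reads cannot be told apart there.

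Dynlrb2 (Entrez 75465, chromosome 8, 116505015 to 116515915) encodes a small roadblock-type dynein light chain found with motile cilia. It had 1.58, 1.12 and 7.36 CPM in HOIL-deficient mTEChi, against 52.6, 20.6 and 27.3 CPM in control mTEChi. No library of either group came near the other group, and the highest value was control replicate 1. Dynlrb2 fell by 3.39 (SE 0.670, adjusted p = 0.0039). Its close paralog Dynlrb1, which serves cytoplasmic dynein in all cells, was at 204 to 270 CPM in HOIL-deficient mTEChi and 285 to 332 CPM in control mTEChi.

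The radial spokes relay signals from the central microtubules to the dynein arms. Rsph1 (Entrez 22092, chromosome 17, 31255019 to 31277296), a radial spoke head gene, had 3.06, 1.96 and 10.2 CPM in HOIL-deficient mTEChi and 27.3, 24.3 and 20.1 CPM in control mTEChi. Controls were alike and above all HOIL-deficient libraries, of which replicate 3 was the highest. Rsph1 fell by 2.29 (SE 0.684, adjusted p = 0.031), and leaving out any single mTEChi library other than HOIL-deficient replicate 3 ended the call (adjusted p 0.066 to 0.12). Rsph4a (Entrez 212892, chromosome 10, 33905111 to 33916021), a second spoke head gene and the least counted of the 10, had 1.28, 0 and 1.05 CPM in HOIL-deficient mTEChi and 2.25, 3.62 and 1.85 CPM in control mTEChi. These are 28 counts in HOIL-deficient against 73 in control mTEChi, without overlap between libraries, and at -1.76 on the log2 scale (SE 1.20, adjusted p = 0.33) the gene did not pass.

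Tekt1 (Entrez 21689, chromosome 11, 72344717 to 72362442) encodes a tektin, a filament protein inside the axonemal microtubules. It had 7.50, 8.87 and 6.94 CPM in HOIL-deficient mTEChi and 15.2, 13.1 and 13.9 CPM in control mTEChi. The groups did not overlap and their replicates were close, yet at -0.93 on the log2 scale (SE 0.375, adjusted p = 0.11) Tekt1 missed the threshold. It passed with DESeq2 (adjusted p = 0.027), with limma-voom (0.016) and in an edgeR fit of the mTEChi groups alone (0.030), within 0.016 to 0.28 over all alternatives.

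Ccdc153 (Entrez 270150, chromosome 9, 44240677 to 44247306), a coiled-coil protein gene used as a marker of ciliated and ependymal cells, showed the largest change. It had 0.888, 0.560 and 2.87 CPM in HOIL-deficient mTEChi and 34.4, 16 and 19.3 CPM in control mTEChi. The highest HOIL-deficient library was again replicate 3, far below the lowest control. Ccdc153 fell by 4.05 (SE 0.627, adjusted p = 0.0010). Ccdc153 and Dynlrb2 stayed below the threshold in all 16 alternative analyses of this comparison.

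The replicates of a group moved together in part. In HOIL-deficient mTEChi replicate 3, labelled female, was the highest of the group for 7 of the 10 genes, and in control mTEChi replicate 1 was the highest for 6. Rbck1 stood at 10.9, 11.7 and 23.3 CPM in HOIL-deficient mTEChi replicates 1 to 3, and its part in this order was not tested. Summed over the 10 genes, HOIL-deficient mTEChi held 58.9, 53.3 and 87.2 CPM in replicates 1 to 3, and control mTEChi 173 to 226 CPM. Both libraries labelled female are HOIL-deficient. Without them, among libraries labelled male alone, 5 of the 10 genes were lower, Dnah9 being the call that was lost, and the median log2 fold change was -1.85, against -1.49 with all libraries.

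**Figure D2:**
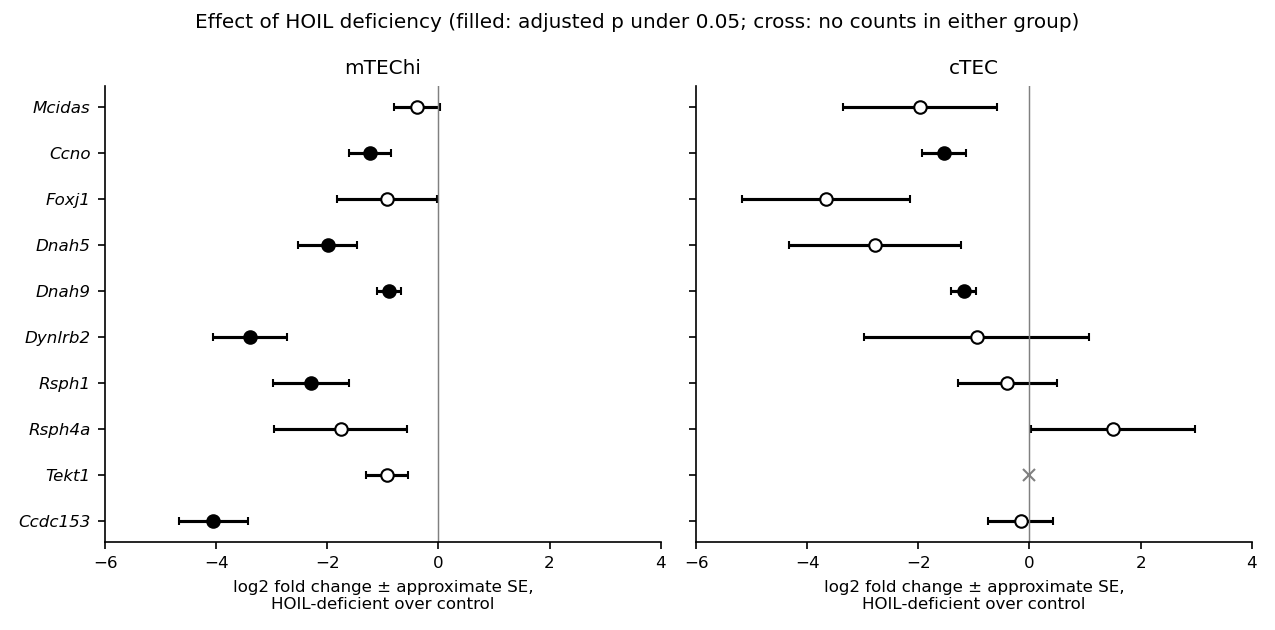
Log2 fold change of each gene, HOIL-deficient over control, with an approximate standard error, in mTEChi (left panel) and in cTECs (right panel); filled points passed an adjusted p of 0.05 and the cross marks Tekt1, which had no counts in either cTEC group. In mTEChi all 10 points lie below 0 and 6 are filled, and in cTECs only Dnah9 and Ccno are filled.

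Levels were compared between genes per gene length, as CPM per kilobase of gene (RPKM). Dynlrb2 led in control mTEChi with 65.1 ± 32.8 RPKM, above Ccdc153 (21.4 ± 9.02 RPKM), Rsph1 (20.6 ± 3.10 RPKM), Ccno (15.6 ± 1.85 RPKM), Tekt1 (9.34 to 10.8 RPKM), Mcidas (5.53 ± 2.03 RPKM), Foxj1 (3.48 ± 2.33 RPKM), Dnah9 (2.08 ± 0.0746 RPKM), Dnah5 (0.854 ± 0.0904 RPKM) and Rsph4a (0.705 ± 0.254 RPKM). In that order the libraries of neighbours overlapped between Ccdc153 and Rsph1, Rsph1 and Ccno, Mcidas and Foxj1, Foxj1 and Dnah9, and Dnah5 and Rsph4a. In HOIL-deficient mTEChi the order began with Ccno (6.94 ± 3.73 RPKM), Dynlrb2 (6.51 ± 6.75 RPKM), Tekt1 (5.53 ± 0.709 RPKM), Mcidas (4.40 ± 0.454 RPKM) and Rsph1 (4.37 ± 3.86 RPKM). Foxj1 (1.96 ± 1.27 RPKM), Ccdc153 (1.33 ± 1.15 RPKM), Dnah9 (1.17 ± 0.164 RPKM), Dnah5 (0.225 ± 0.0695 RPKM) and Rsph4a (0.213 ± 0.187 RPKM) followed. There, neighbours were apart between Tekt1 and Mcidas, by a narrow margin, and between Dnah9 and Dnah5.

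**Figure D3:**
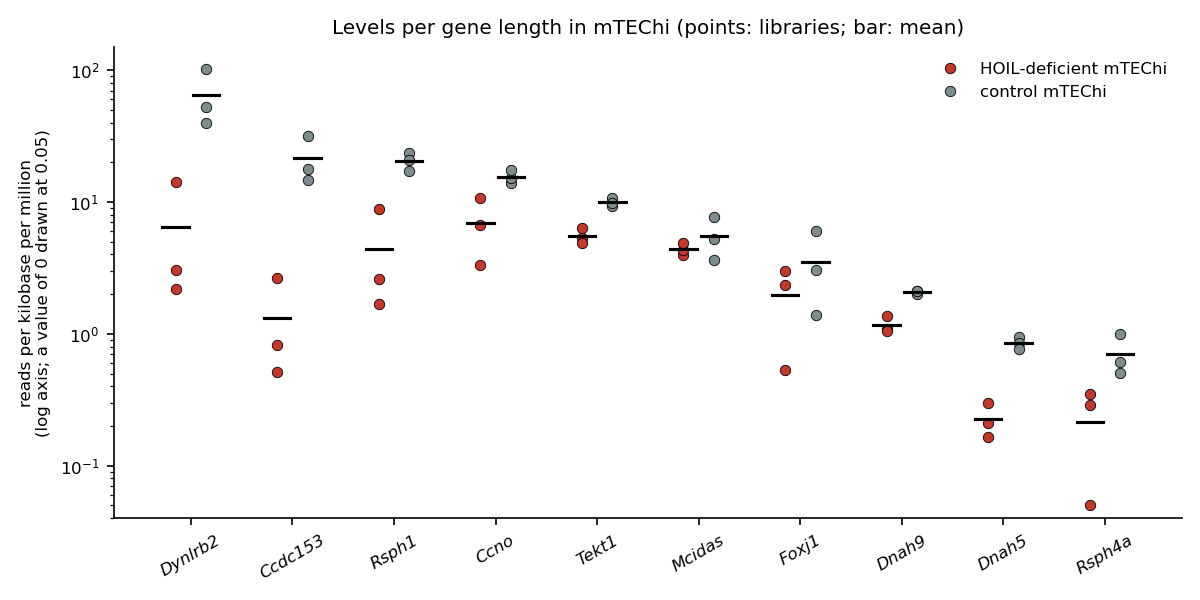
Levels per gene length of the 10 genes in the 6 mTEChi libraries, in RPKM on a log axis, ordered by the control mean, with points for libraries and bars for group means. Dynlrb2 and Ccdc153, the highest in control mTEChi, show the widest gaps between groups, and the values of Mcidas and Foxj1 overlap.

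In cTECs most of these genes were near or at the limit of detection. Tekt1 had 0 counts in all 6 cTEC libraries, Mcidas 0 in HOIL-deficient and 1 in control cTECs, Dnah5 0 in HOIL-deficient and 2 in control cTECs, and Dynlrb2 1 in HOIL-deficient and 2 in control cTECs. A count of 0 over a group, read as up to 3 counts, allows a level of up to 0.0953 CPM in HOIL-deficient cTECs and 0.105 CPM in control cTECs; floors and intervals here cover only the error of counting, as these reads carry no molecular identifiers. Foxj1 had 0.237, 0 and 0 CPM in HOIL-deficient cTECs and 0, 2.39 and 0.516 CPM in control cTECs, which rests on 2 counts in HOIL-deficient and 24 in control cTECs (log2 fold change -3.66, SE 1.51, adjusted p = 0.13; adjusted p = 0.045 with DESeq2). Rsph1 had 22 counts in HOIL-deficient and 23 in control cTECs (adjusted p = 0.86), and Rsph4a 15 in HOIL-deficient and 5 in control cTECs (adjusted p = 0.57).

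Dnah9 and Ccno were the genes of the 10 that changed in cTECs. Dnah9 had 12.2, 14.2 and 12.6 CPM in HOIL-deficient cTECs and 21.8, 32.9 and 28.5 CPM in control cTECs, and fell by 1.18 (SE 0.225, adjusted p = 0.0048). Ccno had 3.67, 3.69 and 3.09 CPM in HOIL-deficient cTECs and 5.62, 11.1 and 12 CPM in control cTECs, and fell by 1.54 (SE 0.403, adjusted p = 0.025). For both genes the groups did not overlap, which is a description, as the share of all tested genes without overlap in cTECs is not given here. By the test, 2 of 10 genes were lower in cTECs, where 6.02% of all tested genes were lower and 6.06% higher. The Ccno call was lost with limma-voom (adjusted p = 0.096), without the libraries labelled female (0.056) and without any single cTEC library other than control replicate 1 (0.052 to 0.089), while Dnah9 passed in all 16 alternatives. Fibroblast and pericyte genes summed to 2920 to 4300 CPM in HOIL-deficient cTECs and 180 to 1700 CPM in control cTECs, and cTEC markers to 14300 to 14700 CPM in HOIL-deficient cTECs and 25900 to 32400 CPM in control cTECs. Endothelial genes summed to 125 to 414 CPM in HOIL-deficient cTECs and 35.6 to 67.9 CPM in control cTECs. Thymocyte genes went the other way, at 611 to 1070 CPM in HOIL-deficient cTECs and 1360 to 5210 CPM in control cTECs, and none of these 4 sums overlapped between the groups. The part of these shifts in the lower Dnah9 and Ccno levels was not tested.

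Whether the effect of HOIL deficiency differed between the cell types was tested as the mTEChi effect minus the cTEC effect. Only Ccdc153 passed among the 10 genes, where 3.86% of all tested genes passed in that direction. Ccdc153 stood at 2.37, 1.74 and 4.22 CPM in HOIL-deficient cTECs and 4.42, 1.51 and 2.79 CPM in control cTECs, overlapping, and its log2 fold change there was -0.16 (SE 0.589, adjusted p = 0.94). The difference from the mTEChi effect was -3.89 (SE 0.843, adjusted p = 0.013), and it passed in all 22 alternatives. For Dnah9 (difference 0.28, SE 0.314, adjusted p = 0.61) and Ccno (0.31, SE 0.541, adjusted p = 0.78) no difference was detected. For Dynlrb2, Dnah5, Mcidas and Tekt1 the test says little, because the cTEC groups held 0 to 2 counts each.

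The cell types were also compared within each genotype. In control mTEChi 9 of the 10 genes were higher than in control cTECs, where 37.8% of all tested genes were higher and 26.4% lower, and these 9 did not overlap between the cell types, as 39.6% of tested genes did not in that direction. Tekt1, Mcidas, Dnah5 and Dynlrb2, with 0 to 2 counts in control cTECs, passed the filter on low counts through mTEChi, so the count of 9 is a description and is not evidence beside the share over all genes. Tekt1 was at least 134-fold higher in control mTEChi, computed against the limit of 3 counts over the cTEC group. With 1 or 2 counts in control cTECs, the ratio was 481 for Dynlrb2 (95% counting interval 133 to 3980), 371 for Mcidas (66.2 to 14700) and 191 for Dnah5 (52.4 to 1580). On the log2 scale Rsph1 was higher by 4.97 (SE 0.817, adjusted p = 0.00013), Foxj1 by 3.40 (SE 1.03, adjusted p = 0.010), Ccdc153 by 3.10 (SE 0.596, adjusted p = 0.00046) and Ccno by 1.72 (SE 0.385, adjusted p = 0.0014). The Foxj1 call was lost without control mTEChi replicate 1 (adjusted p = 0.060). Rsph4a rose by 3.86 (SE 1.42, adjusted p = 0.028) on 73 counts in control mTEChi and 5 in control cTECs, a call lost without any single control library other than mTEChi replicate 3 (adjusted p 0.051 to 0.089).

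Dnah9 was the exception, with 28.6 ± 1.03 CPM in control mTEChi and 27.7 ± 5.56 CPM in control cTECs (log2 fold change 0.15, SE 0.220, adjusted p = 0.58). Its fellow outer arm gene Dnah5, by contrast, had 376 counts in control mTEChi and 2 in control cTECs.

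Between the HOIL-deficient groups 7 of the 10 genes were higher in mTEChi than in cTECs, where 32.0% of all tested genes were higher. Tekt1, Mcidas, Dnah5 and Dynlrb2, with 0 or 1 counts in HOIL-deficient cTECs, passed the filter through mTEChi. The count of 7 is therefore a description and is not evidence beside the share over all genes. Mcidas was at least 110-fold, Tekt1 at least 80.6-fold and Dnah5 at least 38.2-fold higher, and Dynlrb2 had a ratio of 119 (counting interval 21.0 to 4740). The exceptions were Dnah9 (log2 fold change 0.43, adjusted p = 0.13), Rsph4a (0.60, adjusted p = 0.73) and Ccdc153 (-0.79, SE 0.606, adjusted p = 0.30). Ccdc153 averaged 1.44 ± 1.25 CPM in HOIL-deficient mTEChi and 2.78 ± 1.29 CPM in HOIL-deficient cTECs, and without mTEChi replicate 3 it was lower in mTEChi (-1.85, adjusted p = 0.034).

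Other genes of the motile cilium program were followed by lists of known function. Beyond the 10 genes these lists held 108 genes, of which 104 were tested. In HOIL-deficient mTEChi 28 of the 104 fell and 0 rose, where 8.59% of all tested genes were lower and 11.3% higher, 84 had a negative log2 fold change, and the median was -0.83. The number that fell ran from 12 without control replicate 1 to 40 with limma-voom. Some of the 104 passed the filter on low counts through control mTEChi alone. Tmem212, for example, had 7 counts in HOIL-deficient mTEChi, 572 in control mTEChi and 0 in both cTEC groups. The numbers that fell, here and in the single lists below, are therefore descriptions. In cTECs 7 of the same 104 were lower and 8 higher, with a median of -0.02, which is close to the 6.02% lower and 6.06% higher among all tested genes.

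**Figure D4:**
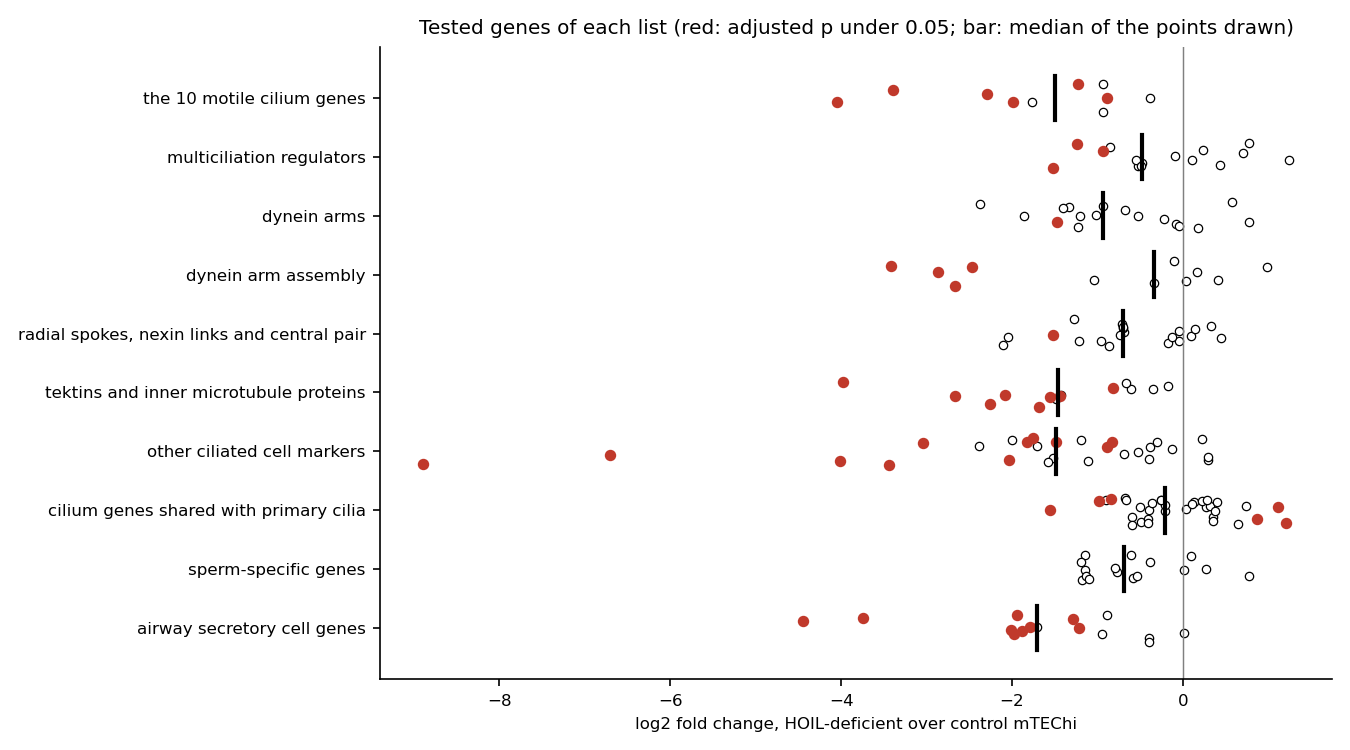
Log2 fold change, HOIL-deficient over control mTEChi, of every tested gene of each list, with genes past an adjusted p of 0.05 in red and a bar at the median of the points drawn; the 10 genes are shown in the top row and left out of the other rows. The point farthest to the left is Sntn, which had no counts in HOIL-deficient mTEChi, so its fitted value depends on the prior count. Tektins and inner microtubule proteins lie wholly below 0, whereas genes shared with primary cilia lie on both sides.

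Among 18 multiciliation regulators, Mcidas, Ccno and Foxj1 included, 4 fell and 0 rose in HOIL-deficient mTEChi, with a median of -0.49. Among all tested genes 8.59% were lower and 11.3% higher. Ccdc78, a component of the structures that amplify centrioles, had 4.04, 3.36 and 6.16 CPM in HOIL-deficient mTEChi and 14.2, 11.4 and 11.6 CPM in control mTEChi, and fell by 1.52 (adjusted p = 0.014). Rfx1, a member of the RFX family, fell by 0.94 (adjusted p = 0.034), and Trp73, which encodes the multiciliogenesis factor p73, fell by 1.24 (adjusted p = 0.046). Over the alternatives adjusted p ran up to 0.065 for Ccdc78, 0.13 for Rfx1 and 0.16 for Trp73. The call was lost in 3 of 16 for Ccdc78, 6 for Rfx1 and 10 for Trp73. The number of regulators that fell went down to 0 without HOIL-deficient replicate 2 and without control replicate 1. It was 1 without HOIL-deficient replicate 1 and without control replicate 3. Gmnc, which acts above Mcidas, did not pass, at 6.71, 12.8 and 7.92 CPM in HOIL-deficient mTEChi and 1.23, 5.69 and 4.40 CPM in control mTEChi (log2 fold change 1.24, SE 0.603, adjusted p = 0.17). All HOIL-deficient libraries lay above the controls for Gmnc. Deup1, the organiser of centriole amplification, overlapped between the groups, at 6.02, 7.85 and 15.1 CPM in HOIL-deficient mTEChi and 11.4, 16.3 and 12.7 CPM in control mTEChi (-0.53, adjusted p = 0.56).

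The other regulators did not pass either. Plk4, the kinase that starts centriole formation, had a log2 fold change of 0.71 (adjusted p = 0.072), and the transcription factor Myb, which thymocytes also express, 0.77 (adjusted p = 0.080). The Mcidas partners E2f5 and E2f4 had values of 0.43 and 0.11 (adjusted p = 0.17 and 0.75). The RFX genes Rfx2, Rfx3 and Rfx4 had -0.09, -0.48 and -0.55 (adjusted p = 0.93, 0.33 and 0.72). Foxn4 had -0.85, Tub -0.49 and Cdc20b 0.24 (adjusted p = 0.65, 0.73 and 0.81). The regulators summed to 227 to 284 CPM in HOIL-deficient mTEChi and 217 to 264 CPM in control mTEChi, so their summed levels overlapped. Myb alone held 52.7, 62.7 and 75.9 CPM of it in HOIL-deficient mTEChi and 33.7, 39.7 and 33.9 CPM in control mTEChi. Myb, Plk4, E2f4 and E2f5 were the highest regulators in each HOIL-deficient mTEChi library. The sum mostly reflects these genes and does not describe the other regulators.

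Structural genes and markers of ciliated cells form the other lists. Of 28 tested markers of ciliated cells, Ccdc153 among them, 12 fell and 0 rose, where 8.59% of all tested genes were lower and 11.3% higher. Their median was -1.50, and 4 fell without control replicate 1. Tmem212, a ciliated cell membrane protein gene, had 0, 0.280 and 0.280 CPM in HOIL-deficient mTEChi and 28.9, 12.4 and 19.7 CPM in control mTEChi, which is 7 counts against 572 and 0 in all cTEC libraries. It fell by 6.71 (SE 0.760, adjusted p = 0.00055). Tctex1d4, a light chain of the Tctex type, fell by 4.01 (adjusted p = 0.0011). Sntn, which encodes sentan of the ciliary tip and was named after its values were seen, had 0 counts in HOIL-deficient mTEChi and 151 in control mTEChi, at least 62.9-fold lower against the limit of 3 counts over the group.

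Of 15 tested tektin and inner microtubule genes, Tekt1 among them, 8 fell and 0 rose, where 8.59% of all tested genes were lower and 11.3% higher. All 15 had a negative log2 fold change, with a median of -1.44, and 5 fell without the libraries labelled female. Cfap126, an inner junction protein also called Flattop, fell by 2.67 (adjusted p = 0.0027), and Nme7 by 0.82 (adjusted p = 0.0076). Tppp3, a microtubule-associated protein gene, had 35.7, 27.2 and 35.6 CPM in HOIL-deficient mTEChi and 122, 71.5 and 79.0 CPM in control mTEChi, and fell by 1.55 (adjusted p = 0.0010). In cTECs Tppp3 moved the other way, to 64.8 to 89.5 CPM in HOIL-deficient against 18.3 to 22.9 CPM in control libraries (1.87, SE 0.245, adjusted p = 0.00048).

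Of 11 tested dynein arm assembly genes 4 fell and 0 rose, with a median of -0.34. Zmynd10 had 1.58, 2.15 and 2.80 CPM in HOIL-deficient mTEChi and 13.8, 17.8 and 14.6 CPM in control mTEChi, and fell by 2.87 (adjusted p = 0.0051). Dyx1c1 fell by 2.47 (adjusted p = 0.0069), with 0.296, 0.374 and 0.701 CPM in HOIL-deficient mTEChi and 3.17, 1.86 and 2.43 CPM in control mTEChi. Ccdc103 fell by 2.67 (adjusted p = 0.0085) and was similarly low. Of 20 dynein arm genes 4 fell and 0 rose (median -0.98), and 2 fell without HOIL-deficient replicate 1. The 4 were Dynlrb2, Dnah5, Dnah9 and Dnali1 (a light chain, named after its values were seen, -1.47, adjusted p = 0.042). Dynlrb2, Dnah5 and Dnah9 are already described above. Of the other 17 dynein arm genes only 1 fell, a share below the 8.59% lower among all tested genes. Among these 17, 14 had a negative log2 fold change (median -0.94). Of 22 tested radial spoke, nexin link and central pair genes 2 fell, Rsph1 and the spoke head gene Rsph9, and 0 rose (median -0.71), which is close to the 8.59% lower among all tested genes. Rsph9 had 14.0, 8.78 and 13.2 CPM in HOIL-deficient mTEChi and 32.8, 32.8 and 33.7 CPM in control mTEChi and fell by 1.52 (adjusted p = 0.0016). The axonemal ruler gene Ccdc39 had a log2 fold change of -1.27 (adjusted p = 0.051).

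Genes shared with primary cilia, the sensory cilia that most cells carry, served as a comparison. Of 34 tested, 3 fell and 3 rose in HOIL-deficient mTEChi, near the 8.59% lower and 11.3% higher among all tested genes, with a median of -0.21, and without the libraries labelled female 0 fell. The small GTPase gene Arl3 rose by 1.11 (adjusted p = 0.0036) and the BBSome subunit Bbs7 by 1.21 (adjusted p = 0.0077), whereas the transport protein gene Ift43 fell by 0.98 (adjusted p = 0.013). Their summed level was 865 to 926 CPM in HOIL-deficient mTEChi and 882 to 915 CPM in control mTEChi, overlapping, against the non-overlapping sums of the 10 motile cilium genes. The difference between the lists itself was not tested. In control mTEChi against control cTECs, 68 of the 104 other motile cilium genes were higher and 7 lower (median 2.80), while 3 of the 34 primary cilium genes were higher and 16 lower (median -0.56). Among all tested genes 37.8% were higher and 26.4% lower. Some motile cilium genes, Tmem212 and Cdc20b among them, had 0 counts in cTECs. They passed the filter on low counts through mTEChi, so these counts are descriptions.

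Several motile cilium genes also serve the sperm tail, so sperm-specific genes were counted too. The 26 genes of this list summed to 67.0 to 88.8 CPM in HOIL-deficient mTEChi and 100 to 115 CPM in control mTEChi, without overlap. Only 16 of the 26 were tested, and 12 of these had a negative log2 fold change (median -0.69). Of the 16, 0 fell and 0 rose by edgeR in HOIL-deficient mTEChi. Among them 3 had an unadjusted p under 0.05, and 3 fell with DESeq2 and 3 with limma-voom. The nearest was the tektin gene Tekt5 (-1.13, adjusted p = 0.054).

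Genes of other cells moved in the same libraries, where 8.59% of all tested genes were lower and 11.3% higher between the mTEChi groups. Of 15 airway secretory cell genes 9 fell and 0 rose in HOIL-deficient mTEChi (median -1.71), and their sum was 946 to 1470 CPM against 3720 to 3800 CPM in control mTEChi, with 4 lower without HOIL-deficient replicate 1. The secretoglobin gene Scgb3a2 fell by 4.45 (adjusted p = 0.0024), the mucin gene Muc5ac by 2.01 (adjusted p = 0.0036) and the surfactant protein gene Sftpd by 1.98 (adjusted p = 0.0037). Of 10 endothelial genes 7 rose and 0 fell (median 2.31), Pecam1 (the gene of CD31, which the sort gated out) by 2.82, Plvap by 2.13 and Kdr by 2.99 (adjusted p = 0.0014, 0.0037 and 0.0046), and they summed to 250 to 639 CPM in HOIL-deficient mTEChi and 101 to 131 CPM in control mTEChi. Of 12 fibroblast and pericyte genes 3 rose and 0 fell (median 0.72), namely Acta2 (2.06, adjusted p = 0.018), Postn (2.93, adjusted p = 0.021) and Col3a1 (2.47, adjusted p = 0.028), with sums of 677 to 906 CPM in HOIL-deficient mTEChi and 325 to 385 CPM in control mTEChi. The number of them that rose was 0 with no low-count filter, without control replicate 1 and without control replicate 2. Over 16 alternatives the call was lost in 7 for Col3a1, 6 for Postn and 4 for Acta2. Of 14 thymocyte genes 0 changed by edgeR, 0 had an unadjusted p under 0.05 and 0 changed under any alternative, with sums of 202 to 377 CPM in HOIL-deficient mTEChi and 197 to 344 CPM in control mTEChi. The 9 mTEChi markers summed to 45300 to 51500 CPM in HOIL-deficient mTEChi and 25100 to 39500 CPM in control mTEChi, without overlap. Of the 9, 7 had a positive log2 fold change (median 0.46), and with limma-voom 5 rose and 1 fell. By edgeR H2-Aa (0.46, adjusted p = 0.021) and Tnfrsf11a (0.87, adjusted p = 0.028) rose and Cd86 (-1.23, adjusted p = 0.037) fell. These calls were lost in 6 of 16 alternatives for H2-Aa, 5 for Tnfrsf11a and 7 for Cd86. Of the 7 cTEC markers Cxcl12 (1.39, adjusted p = 0.0023) rose and the Notch ligand gene Dll4 (-1.04, adjusted p = 0.010) fell (median 0.16). None of the genes of these 6 lists was at 0 in all HOIL-deficient mTEChi libraries. The part of these shifts in the lower motile cilium levels was not tested.

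**Figure D5:**
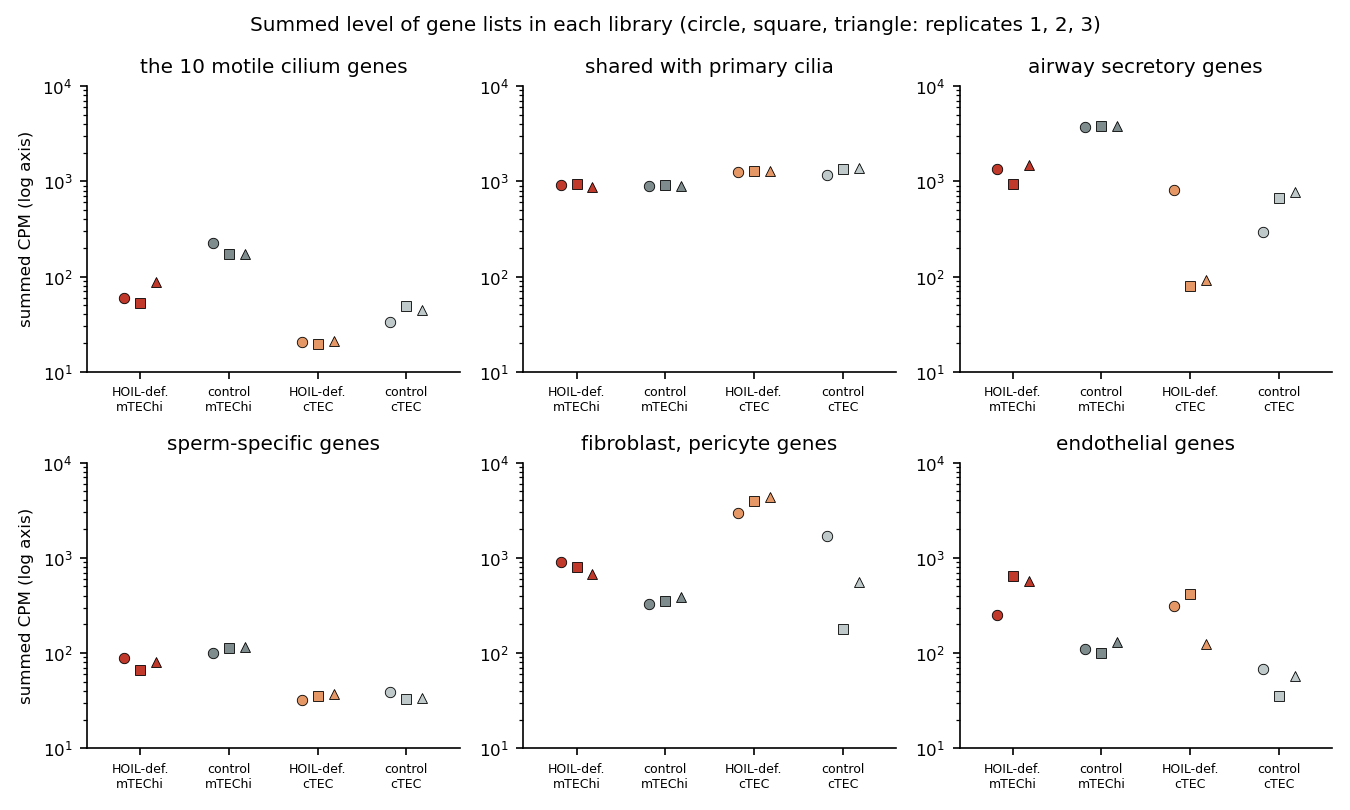
Summed CPM of 6 gene lists in each library on log axes, with symbols for replicates 1, 2 and 3. The 10 motile cilium genes, the airway secretory genes and the sperm-specific genes are lower in every HOIL-deficient than in every control mTEChi library. The genes shared with primary cilia stand level there, and fibroblast and endothelial genes are higher.

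Genes that varied most like the 10 were found by Pearson's r of log2 (CPM + 0.5) with the mean of the centred log2 (CPM + 0.5) of the 10 genes. These correlations are descriptions over few libraries, which share genotype and cell type differences. Over the 12 libraries the closest of 17156 genes were Fam162b (r = 0.994), Lce1h (0.991), Pnliprp2 (0.991), Foxa2 (0.99) and Cyp2j13 (0.99). Foxa2, a forkhead factor of airway and gut epithelium, had 1.18, 0.841 and 1.68 CPM in HOIL-deficient mTEChi, 6.45, 5.89 and 5.32 CPM in control mTEChi and 0 in all cTEC libraries. Over the 6 mTEChi libraries the closest of 17868 genes were Pfkfb2 (0.998), Neurl3 (0.998), Ccdc78 (0.997), Pigr (0.996) and Cxcl2 (0.995). Pigr, the receptor that carries antibodies across epithelia, had 2.96, 1.40 and 11.6 CPM in HOIL-deficient mTEChi and 193, 83.1 and 79.6 CPM in control mTEChi. Of the 10 genes themselves, Mcidas (r = 0.371) and Foxj1 (0.575) followed their common mean least over the mTEChi libraries, and Dnah9 least over all 12 (0.445).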

How the data were processed

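Paired-end 75-base SMART-Seq v4 and Nextera XT libraries of sorted TECs were sequenced on a NextSeq 500, per the labels' protocols. The authors deposited whole-number read counts per Entrez gene with a gene length for each of the 12 libraries, made with featureCounts on mm10, per the submitters' processing notes. The aligner, the annotation and the strand setting were not given in the sources used here. Gene names came from RefSeq for 25275 of 27179 IDs. CPM used library totals, and RPKM the deposited lengths. Counts were fitted with edgeR 4.0.16 (R 4.3.3; TMM, filterByExpr, robust quasi-likelihood F test, 1 coefficient per group, all 12 libraries) and p-values adjusted over 19398 genes; an SE is the absolute log2 fold change over the square root of F. On simulated counts for the mTEChi comparison (19011 genes), 31% of genes changed by 1 and 90% of those changed by 2 on the log2 scale were recovered. Only 200 genes were changed there, against 3858 called in the data. They were drawn from genes above a set mean level, which Rsph4a, Foxj1 and Dnah5 did not reach. The shares recovered therefore do not hold for genes counted as low as these. Alternatives were other size factors and filters, DESeq2 1.42.0, limma 3.58.1 (voom), subsets of libraries, a replicate block and another pseudocount (2 in place of 0.5 CPM). No pair of replicates agreed within sampling noise.

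The 10 genes and the gene lists were chosen with earlier results of these data known, though no measured value entered the rule. Named beside the 10 genes are the 3 genes of each list with the smallest p between the mTEChi groups, all regulators and Rbck1. Also named are the 5 genes most alike in pattern over 12 and over 6 libraries, and Cdc20b and Gpx8, which lie beyond Mcidas on chromosome 13. Outside this rule, Aire is given to check the sort, Dynlrb1 as the paralog of Dynlrb2, and Dnali1 and Sntn were named after their values were seen.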

Additional observations from a re-analysis of the deposited data

Results flagged for a closer look

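For 18 named genes the effect of HOIL deficiency differed between mTEChi and cTECs, by an interaction test in edgeR with adjustment over all tested genes. Among 19398 tested genes 1908 passed this test. Many of the named genes were picked by a small p between the mTEChi groups, which is a part of the difference, so the count of 18 is a description. Values are the log2 fold change in mTEChi minus that in cTECs. Of the 10 motile cilium genes this was Ccdc153 (-3.89, adjusted p = 0.013). Of other motile cilium genes it was Zmynd10 (-4.32, adjusted p = 0.014), Tppp3 (-3.42, adjusted p = 0.00029), Trp73 (-2.82, adjusted p = 0.0098), Cfap126 (-2.78, adjusted p = 0.031), Dyx1c1 (-2.61, adjusted p = 0.035) and Nme7 (-0.98, adjusted p = 0.030). Myb, which is listed with the multiciliation regulators and is also a thymocyte gene, had a difference of 2.61 (adjusted p = 0.0033). It stood at 32.2, 34.4 and 44.6 CPM in HOIL-deficient cTECs and 199, 74.5 and 99.4 CPM in control cTECs, while thymocyte genes summed to 674, 611 and 1070 CPM in the same HOIL-deficient libraries and 5210, 1360 and 2020 CPM in the same control libraries; their part in the Myb difference was not tested. Tppp3 and Trp73 fell in HOIL-deficient mTEChi and rose in HOIL-deficient cTECs. Trp73 stood at 3.35, 3.64 and 1.61 CPM in HOIL-deficient mTEChi and 7.78, 5.17 and 6.25 CPM in control mTEChi, and at 14.6, 9.22 and 15.8 CPM in HOIL-deficient cTECs and 3.68, 5.04 and 3.72 CPM in control cTECs.

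Outside the motile lists the difference was -3.85 for Muc5ac (adjusted p = 0.012), -2.58 for Sftpd (0.013), -2.94 for Neurl3 (0.020), -2.52 for the sperm tektin gene Tekt5 (0.015) and -1.36 for Ift43 (0.026). It was 1.08 for Arl3 (adjusted p = 0.036), 1.99 for the cTEC protease gene Prss16 (0.0055), 1.89 for the cTEC chemokine gene Cxcl12 (0.0062), 2.90 for the thymocyte gene Ptcra (0.022) and 2.61 for Cd3e (0.022). Over 22 alternatives the call was lost in 13 for Arl3, in 11 each for Cfap126 and Nme7, and in 7 for Ptcra. It was lost in 4 each for Ift43 and Cd3e, in 2 for Neurl3 and in 1 for Tekt5. Dyx1c1 was not among the genes followed over the alternatives, and the other named differences passed in all 22.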

How the results depend on the processing

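No result changed direction among those past the threshold. Leaving out single mTEChi libraries gave 1944 to 3116 genes called between the mTEChi groups, against 3858 with all libraries, and 2 to 6 of the 10 motile cilium genes. In cTECs 1395 genes were called in a fit of the cTEC groups alone, 1540 without the libraries labelled female and 1340 to 2306 when single libraries were left out, against 2342; of the 10 genes 1 was called with limma-voom, 1 without the libraries labelled female and 1 to 2 without single libraries. The test of the difference called 1030 genes without the libraries labelled female and 949 to 2088 without single libraries, against 1908, and Ccdc153 in every case. The cause was not tested, beyond the smaller number of libraries. Genes with 0 to 2 counts in a group are limited by depth.

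The labels do not say that replicate numbers pair the samples, so they were not treated as pairs. Deviations of same-numbered libraries correlated at 0.11, 0.19 and 0.09 between HOIL-deficient mTEChi and cTECs, where each of the 3 mTEChi libraries was most like the cTEC library of its own number (a hint from the data, with replicate 3 labelled female in both groups), at -0.01, 0.17 and -0.07 between control mTEChi and cTECs, and at -0.11, -0.03 and -0.12 between the mTEChi genotypes. With the replicate number as a block, 3288 genes were called between the mTEChi groups, 1799 between the cTEC groups and 1484 for the difference, with 6, 2 and 1 of the 10 genes.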

Other observations

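Ccno and Mcidas lie side by side on chromosome 13, and Cdc20b and Gpx8, beyond Mcidas, differed in where they were expressed. Genes on the other side, beyond Ccno, are not described here. Cdc20b (113034975 to 113121019), a ciliated cell gene next to Mcidas, averaged 4.48 ± 1.79 CPM in HOIL-deficient mTEChi and 3.64 ± 0.984 CPM in control mTEChi (SD, n = 3 each) and had 0 counts in all cTEC libraries, as Mcidas nearly did. Gpx8 (113042757 to 113046430), a peroxidase gene within its span, averaged 6.93 ± 2.34 CPM in HOIL-deficient mTEChi and 6.73 ± 1.63 CPM in control mTEChi, and 93.7 ± 16.6 CPM in HOIL-deficient cTECs and 55.2 ± 8.74 CPM in control cTECs.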
